A study of Homo sapiens with 2 samples.

Results

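MiR-191 and miR-425 are microRNAs (miRNAs), small regulators that silence messenger RNAs, and their hairpin precursors lie side by side in an intron of the gene DALRD3. The members described here are the 4 mature miRNAs of these 2 hairpins, hsa-miR-191-5p, hsa-miR-191-3p, hsa-miR-425-5p and hsa-miR-425-3p (the species prefix hsa- is left out from here on), of 1497 mature names from 1095 hairpins in the deposited table. They were selected on the name of their precursor and each had 1 row. The pair was picked with its measured RPM in these libraries known, so the levels below are a description with no test. Small RNA sequencing was done on A375, an established human melanoma cell line, in 1 group of 2 libraries. All cells had been kept for 48 h with DMSO, a solvent that serves as vehicle. The labels call the libraries replicates without saying what was repeated, so their spread may in part be technical. No untreated or drug-treated group was analysed here, and no comparison speaks of a treatment.

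A miRNA gene is transcribed as part of a longer RNA, from which the enzyme Drosha cuts a hairpin and the enzyme Dicer a short duplex. The strands of that duplex come from the 5′ and the 3′ side of the hairpin and are called the 5p and 3p arms. An Argonaute protein keeps mostly one of them, the guide, and the other, the passenger, is usually degraded. The seed, bases 2 to 8 of a mature miRNA, sets most of its pairing with targets. MiR-191 and miR-425 are known as abundant miRNAs of many tissues that are raised in several human cancers, and in breast cancer cells they are induced by oestrogen as a pair. The host gene, DALRD3, encodes a protein needed for methylation of arginine transfer RNAs.

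The GENCODE 29 annotation of GRCh38 places the hairpin MIR191 at chr3:49020618-49020709 on the minus strand and MIR425 at chr3:49020148-49020234 on the same strand, 383 bases further along the direction of transcription. DALRD3 spans 49015488 to 49022293 on the minus strand of chromosome 3. Of its 15 annotated transcripts, 4 span both hairpins, 3 of them protein coding. In each of these 4 the hairpins lie in the same intron, which is intron 1, and neither overlaps an exon. In the transcript DALRD3-201 this intron runs from 49018319 to 49020845. MIR191 also lies within NDUFAF3, a gene for a mitochondrial complex I assembly factor on the opposite strand, where 1 of 6 transcripts spans it with an intron, and no NDUFAF3 transcript spans MIR425. Another 6 hairpins of the table lie within 1000000 bases of the locus on either strand, and their summed arms reached at most 1.04 ± 0.0970 RPM (mir-4443). No listed hairpin in this window other than mir-191 and mir-425 reached 10 RPM.

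The mature sequences below show what distinguishes the arms. They are from RefSeq (GRCh38.p14), written 5′ to 3′ with the seed in capitals.
miR-191-5p: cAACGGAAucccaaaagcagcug
miR-191-3p: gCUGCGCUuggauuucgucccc
miR-425-3p: aUCGGGAAugucguguccgccc
The seeds of these 3 arms differ from each other, and no other human mature name in the RefSeq table has any of them. MiR-191-5p is 23 bases long with 52.2% G and C, while miR-191-3p and miR-425-3p are 22 bases long with 63.6% each. Among names at a mean of 10 RPM or more that had a sequence (310 of 346) the median was 47.8%. MiR-191-5p begins with C. Among names with a sequence at 10000 RPM or more (16 of 19), 11 began with U, 3 with A, 2 with C and 0 with G, and the other C was that of miR-99b-5p. Among those at 1000 RPM or more (57 of 66), 8 began with C.

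The mir-191 hairpin is shown with both arms in capitals, since the results turn on how unevenly they accumulated.
mir-191 hairpin: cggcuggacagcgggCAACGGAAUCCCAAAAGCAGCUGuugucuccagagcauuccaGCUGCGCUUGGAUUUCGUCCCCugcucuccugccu
Of its 92 bases, the 5p arm takes positions 16 to 38 and the 3p arm positions 58 to 79, with 19 bases between them. In the minimum free energy structure predicted by RNAfold, 16 of the 23 bases of miR-191-5p pair with miR-191-3p.

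MiR-191-5p was among the most abundant miRNAs of these cells. It had 45001 RPM (reads per 1000000 read assignments of a library) in replicate 1 and 61895 RPM in replicate 2, from 486770 and 954951 reads. It was number 5 in level in replicate 1, after miR-100-5p, miR-21-5p, miR-92a-3p and miR-27b-3p, and number 2 in replicate 2, after miR-100-5p. Its mean of 53448 ± 11946 RPM (SD, n = 2) was number 3 in rank. The range of mean ± SD overlapped those of miR-100-5p, miR-21-5p, miR-92a-3p, miR-27b-3p, let-7a-5p and miR-22-3p, so its place among these 7 was not resolved. The names closest to it over both libraries were miR-92a-3p, miR-27b-3p and miR-21-5p, at Euclidean distances of 0.35, 0.40 and 0.55 in log2(RPM + 1). MiR-92a-3p had 53477 RPM in replicate 1 and 52102 RPM in replicate 2, and miR-21-5p had 59733 and 47975 RPM. Log2 of replicate 2 over replicate 1 was -0.32 for miR-21-5p and -0.21 after scaling by the median ratio of expressed names, while miR-92a-3p (-0.04 as deposited, 0.07 scaled) and miR-27b-3p (-0.10 as deposited, 0.0077 scaled) changed sign.

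MiR-425-5p, the guide of the second hairpin, stood far lower. It had 954 RPM in replicate 1 and 1222 RPM in replicate 2, from 10323 and 18850 reads. The mean of 1088 ± 189 RPM (SD, n = 2) was number 65 in rank, between miR-1307-3p (1101 ± 192 RPM) and miR-320a (1092 ± 198 RPM) above and miR-9-5p (1018 ± 91.0 RPM) and miR-345-5p (913 ± 64.1 RPM) below. Its range of mean ± SD overlapped those of 12 other names, these 4 included. Its closest pattern over both libraries, at a distance of 0.06, was miR-24-3p, with 976 and 1264 RPM. MiR-9-5p followed at 0.17 and miR-26b-5p at 0.39.

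The 3p arms were present at far lower levels, and in the opposite order. MiR-191-3p, the passenger of mir-191, had 49.1 RPM in replicate 1 (95% exact Poisson interval 45.0 to 53.4) and 46.1 RPM in replicate 2 (42.8 to 49.7), from 531 and 712 reads. MiR-425-3p, the passenger of mir-425, had 143 RPM in replicate 1 (136 to 150) and 121 RPM in replicate 2 (115 to 126), from 1542 and 1863 reads. These intervals reflect the counting of reads alone, which after PCR are not separate molecules. In each library miR-425-3p was thus above miR-191-3p by more than counting error, although its partner arm was below that of miR-191. MiR-425-3p (132 ± 15.4 RPM, SD, n = 2) was number 146 in rank, next to miR-374a-5p (133 ± 51.4 RPM) and miR-424-3p (136 ± 13.3 RPM) above and miR-7974 (130 ± 30.4 RPM) and miR-33b-5p (125 ± 12.7 RPM) below. MiR-191-3p (47.6 ± 2.08 RPM) was number 215, next to miR-3194-5p (48.7 ± 24.1 RPM) and miR-502-3p (49.0 ± 3.08 RPM) above and miR-3065-5p (47.4 ± 6.49 RPM) and miR-1301-3p (47.3 ± 6.24 RPM) below. None of these 8 neighbours was separated from its member by more than the spread between the libraries. All 4 members passed the minimum of 10 RPM in both libraries, and no member's range of mean ± SD met that of another.

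**Figure D1:**
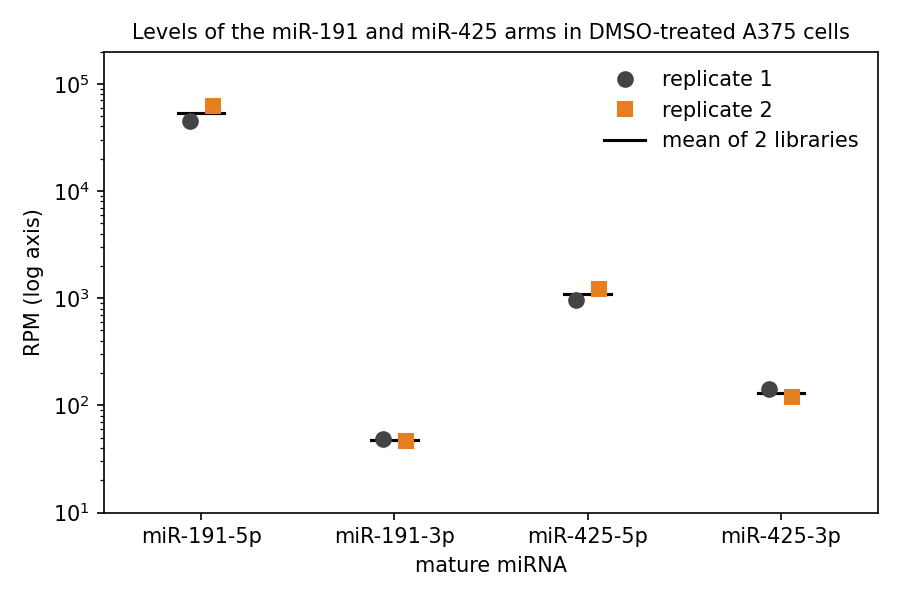
RPM on a log axis of the 4 mature miRNAs in replicate 1 (circles) and replicate 2 (squares), with black lines at the mean of the 2 libraries. MiR-191-5p stood at 53448 RPM and miR-425-5p at 1088 RPM, while among the 3p arms miR-425-3p (132 RPM) stood above miR-191-3p (47.6 RPM).

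Together the 4 members held 5.95% of the RPM in replicate 1 and 8.08% in replicate 2, a mean of 7.02% ± 1.51 (SD, n = 2) of the total with 1 value per mature name. Nearly all of it was mir-191, whose arms made up 97.6% of the members' RPM in replicate 1 and 97.9% in replicate 2. The share of mir-425 was 2.38% and 2.12%.

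The ratio between the hairpins was then taken within each library, which cancels the scaling of the library. Log2 values are of RPM + 1. MiR-191-5p was 47.2-fold and 50.7-fold above miR-425-5p in replicates 1 and 2, or 5.61 ± 0.07 on the log2 scale (SD, n = 2). The 3p arms gave -1.44 ± 0.11 for miR-191-3p over miR-425-3p, which was 2.90-fold and 2.62-fold higher for miR-425-3p. With both arms summed, mir-191 was 41.1-fold and 46.1-fold above mir-425 (5.44 ± 0.12). Adapter ligation favours some sequences, and its part in a ratio between different miRNAs was not tested.

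These ratios were set beside those of 45 pairs of neighbouring hairpins at most 1000 bases apart on one strand, mir-191 and mir-425 among them. Each hairpin averaged 10 RPM or more, and only hairpins directly next to each other among these were paired. The median difference of these pairs was 2.45 on the log2 scale of summed arms, or 5.45-fold, and 5 pairs were further apart than mir-191 and mir-425. In 20 of the 45 a mature name is shared with another hairpin, so that reads cannot be assigned to the single hairpin. Of the 25 without such a name, 1 was further apart, mir-27b and mir-23b at 6.11 ± 0.22. The 3 other pairs with the highest summed level were let-7a-1 and let-7f-1 (1.68 ± 0.24), mir-92a-1 and mir-19b-1 (5.98 ± 0.06) and mir-27b and mir-24-1 (5.51 ± 0.33). In each of these 3 pairs a mature name is shared with a further hairpin. Pairs that share a hairpin are not independent, and this is a description with no test.

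**Figure D2:**
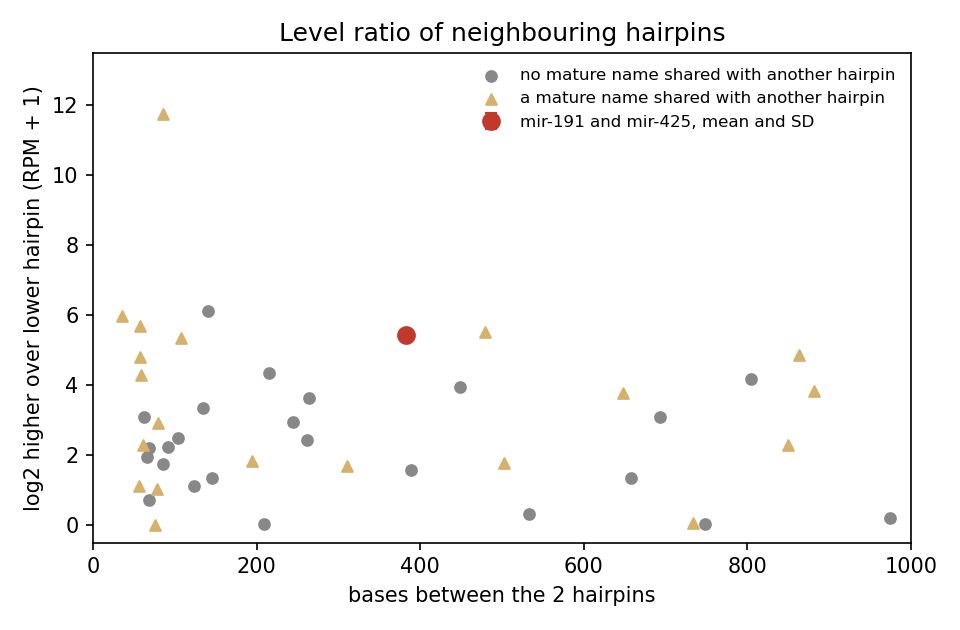
Log2 ratio of the higher to the lower hairpin (RPM + 1, both arms summed, mean of 2 libraries) against the bases between them for 45 pairs of neighbouring hairpins, with triangles for pairs in which a mature name is shared with another hairpin. The red point is mir-191 over mir-425 at 383 bases and 5.44, with a bar of 1 SD that is smaller than the point, and 5 pairs stand higher.

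An order of levels that turns round between the arms was not particular to this locus. Both arms of both hairpins were listed for 37 of the pairs, and in 14 (37.8%) the order by the 5p arms was opposite to that by the 3p arms in both libraries. In 8 of these the hairpins did not favour the same arm in both libraries. Among the 28 pairs that favour the same arm, as mir-191 and mir-425 do, the order was opposite in 6. These were mir-191 and mir-425, mir-222 and mir-221, mir-27a and mir-24-2, let-7c and mir-99a, mir-29b-2 and mir-29c, and mir-195 and mir-497. In mir-27a and mir-24-2, and in mir-29b-2 and mir-29c, a mature name is shared with another hairpin. The 3p arms of mir-222 and mir-221 differed by 0.07 and 0.19 on the log2 scale in replicates 1 and 2. Of the 22 pairs with no shared name, 10 were opposite. The minimum of 10 RPM was on summed arms, so single arms could lie below it.

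The hairpins differed widely in arm preference. In mir-191 the 5p arm was 917-fold above the 3p arm in replicate 1 and 1341-fold in replicate 2, a log2 ratio of 10.08 ± 0.39 (SD, n = 2). In mir-425 it was 6.69-fold and 10.1-fold above, a log2 ratio of 3.03 ± 0.42. The 3p arm took 0.109% of the reads of mir-191 in replicate 1 (95% Wilson interval 0.1001 to 0.119) and 0.0745% in replicate 2 (0.0692 to 0.0802). It took 13.0% of the reads of mir-425 in replicate 1 (12.4 to 13.6) and 8.99% in replicate 2 (8.61 to 9.39). The hairpins thus kept the same favoured arm and differed in how strongly they favoured it.

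Among 137 hairpins for which both arms had rows that together averaged at least 100 RPM, 81 favoured the 5p arm and 56 the 3p arm, and the median absolute log2 ratio was 5.55. The log2 5p over 3p was higher than that of mir-191 in 8 of them, and 92.0% were less uneven than mir-191 whichever arm they favoured. For mir-425, 64 had a higher ratio and 28.5% were less uneven. Hairpins that share a mature name with another hairpin were kept in these counts, although reads of that name cannot be assigned to a single hairpin. The hairpins nearest to mir-191 in this ratio were mir-181b-2 (10.14 ± 0.12) and let-7a-2 (10.24 ± 0.12). In mir-181b-2 a 5p arm of 6196 ± 1689 RPM stood beside a 3p arm of 4.44 ± 1.05 RPM, and in both hairpins the 5p arm is shared with other copies. Nearest to mir-425 were mir-126 (2.90 ± 0.36), a miRNA known from endothelial cells among others, and mir-181c (2.82 ± 0.13).

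**Figure D3:**
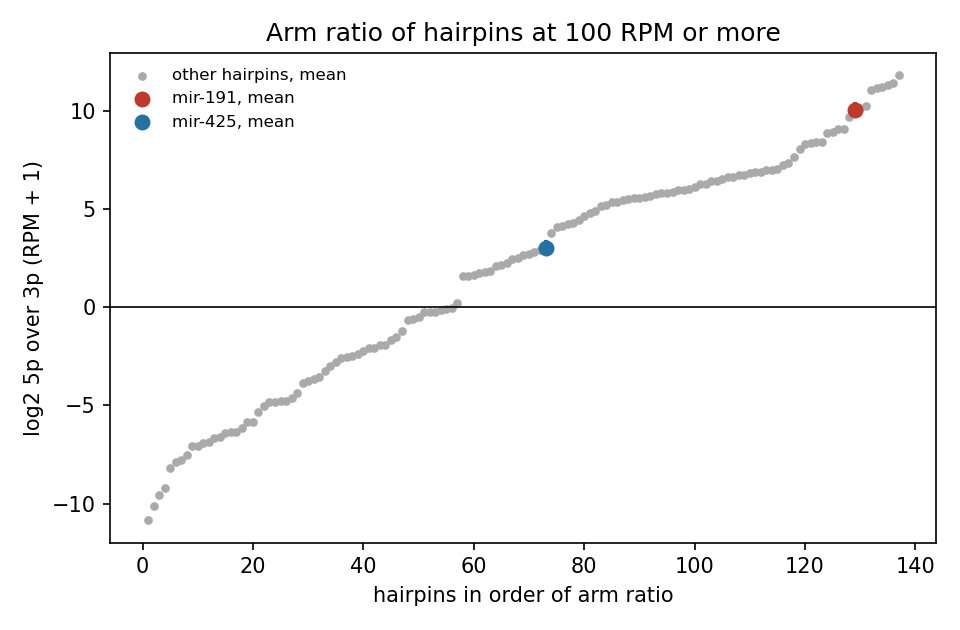
Log2 ratio of the 5p to the 3p arm (RPM + 1, mean of 2 libraries) for 137 hairpins in rising order, with mir-191 at 10.08 and mir-425 at 3.03 as large points and vertical lines between the values of the 2 libraries. Both hairpins favour the 5p arm, mir-191 near the upper end of the order and mir-425 near its middle.

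The members also differed between the libraries, the only measure of spread in this study. Log2 of replicate 2 over replicate 1 was 0.46 for miR-191-5p and 0.36 for miR-425-5p, while it was -0.09 for miR-191-3p and -0.24 for miR-425-3p. Both 5p arms were thus higher in replicate 2 and both 3p arms lower as deposited, but after scaling by the median ratio of all expressed names miR-191-3p stood at 0.014, on the other side of 0. The median of 346 names at a mean of 10 RPM or more was itself -0.10, with 40.8% of them higher in replicate 2. Relative to that median, both 5p arms moved up, miR-425-3p moved down and miR-191-3p stayed close to it. None of the 4 members was over 2-fold apart, beside 6 of 346 names (1.73%) over the whole table. A two-sided Fisher exact test on recovered reads with Benjamini-Hochberg adjustment, which compares these libraries and counts no spread beyond that of reads, called 40 of 869 names past 2-fold (4.6%), with 0 of the 4 members among them. At any fold the exact test called 300 names (34.5%), among them 3 members, miR-191-5p, miR-425-5p (adjusted p = 2.7e-91) and miR-425-3p (adjusted p = 8.5e-06), and not miR-191-3p (adjusted p = 0.49). The 869 names needed only 10 reads over both libraries, and small differences are seldom called on few reads. The members had 531 reads or more in each library. The share called among names of like depth was not computed, so the 34.5% is no measure for the members. The absolute difference of miR-191-5p exceeded that of 83.2% of the names and that of miR-425-5p exceeded 71.1%, while miR-425-3p and miR-191-3p exceeded 46.5% and 15.0%.

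**Figure D4:**
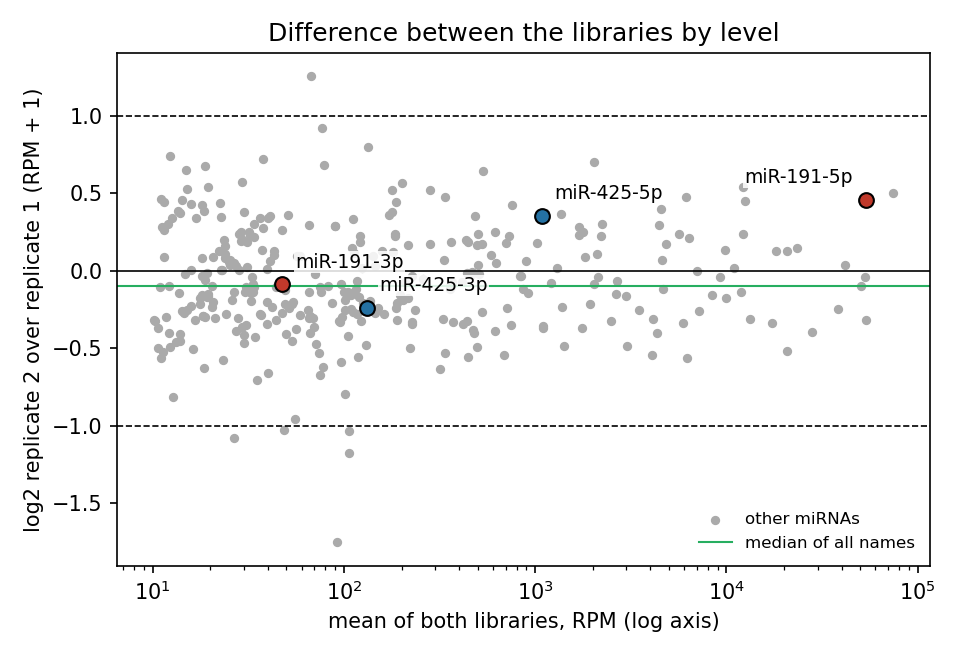
Log2 of replicate 2 over replicate 1 (RPM + 1) against the mean level of 346 miRNAs at 10 RPM or more, with the 4 members marked, dashed lines at 2-fold and a green line at the median of -0.10. MiR-191-5p (0.46) and miR-425-5p (0.36) lie in the upper part of the cloud, and miR-191-3p (-0.09 as deposited, 0.014 after median-ratio scaling) lies at the median line.

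The arm ratio does not depend on the scaling of a library, and it was higher in replicate 2 for both hairpins, by 0.55 (mir-191) and 0.59 (mir-425) on the log2 scale. The median absolute change over the 137 hairpins was 0.28, with 33 hairpins changed by more than mir-191 and 24 by more than mir-425. The median signed change was -0.03, and 65 of 137 had a higher ratio in replicate 2. The pattern of a higher 5p arm with a lower 3p arm, as deposited, was seen in 25 of the 137 hairpins (18.2%), and miR-191-3p leaves that pattern under the median-ratio scaling. The log2 ratio of mir-191 over mir-425, both arms summed, changed by 0.17 between the libraries, beside a median of 0.26 over the 45 pairs, of which 31 changed by more.

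MiR-191-5p and miR-425-5p are both in use as normalisers in measurements of miRNAs by quantitative PCR, with others such as miR-103a-3p and miR-16-5p. Of a list of 12 such miRNAs, 12 were in the table and 11 averaged at least 10 RPM. The exception was miR-451a, a miRNA of red blood cells, with 1 read in replicate 1 and 0 in replicate 2, which allows up to 0.194 RPM. MiR-191-5p had the largest log2 difference toward replicate 2 of the 11, at 0.46, followed by miR-16-5p (0.45), miR-24-3p (0.37) and miR-425-5p (0.36). Then came miR-26a-5p (0.24), miR-484 (0.20) and let-7a-5p (0.03). MiR-423-5p (-0.37), miR-103a-3p (-0.40) and miR-423-3p (-0.54) were lower in replicate 2, and so was miR-93-5p as deposited (-0.09), but not after median-ratio scaling (0.017). In RPM, miR-16-5p had 10598 and 14465, and miR-103a-3p had 4959 and 3754. None of the 11 was over 2-fold apart, beside 6 of 346 names (1.73%) over the whole table. The median absolute difference of the 11, miR-191-5p and miR-425-5p included, was 0.37 beside 0.25 over all 346 names. The list was chosen with earlier results of these data known, so this is a description with no test. The list held abundant miRNAs, with a median level of 4065 RPM beside 97.2 RPM over all names.

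**Figure D5:**
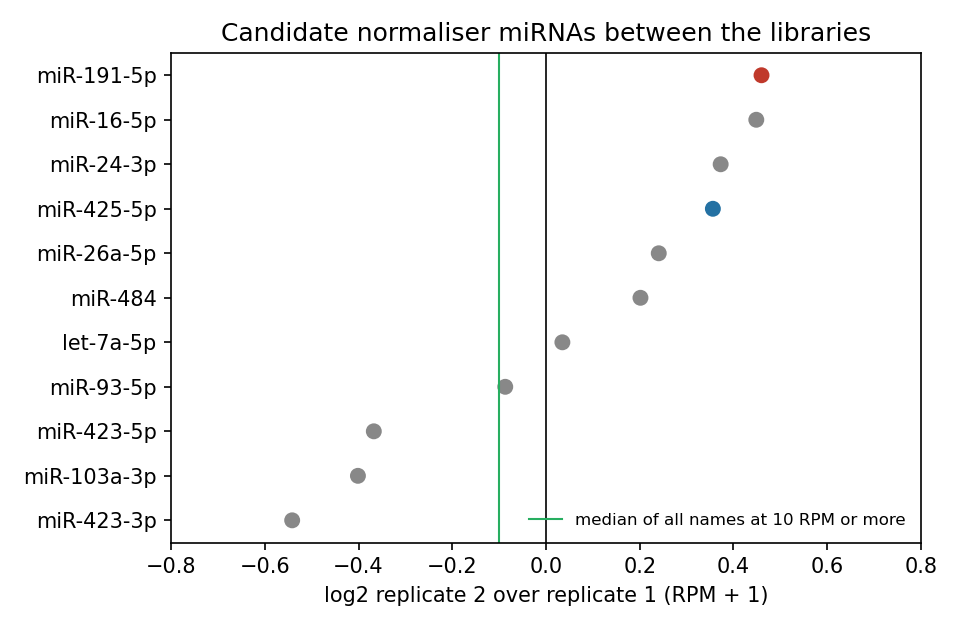
Log2 of replicate 2 over replicate 1 (RPM + 1) for the 11 listed normaliser miRNAs at 10 RPM or more, with miR-191-5p in red, miR-425-5p in blue and a green line at the median of all names, -0.10. The values run from 0.46 for miR-191-5p to -0.54 for miR-423-3p and miR-93-5p lies at the green line.

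MiR-191 and miR-425 are abundant in blood cells too, so markers of other cells are given beside them. Of 7 blood cell miRNAs, 5 were in the table and their summed level was 176 RPM in replicate 1 and 205 RPM in replicate 2, nearly all of it miR-486-5p (186 ± 20.7 RPM). MiR-142-3p, a marker of white blood cells, had 4 and 5 reads. The 4 epithelial miRNAs summed to 22.4 and 33.4 RPM. Of 7 melanocyte and melanoma miRNAs, 6 were above 1000 RPM in both libraries, while miR-211-5p had 3 and 2 reads. The part of other cells in the levels of miR-191 and miR-425 was not tested.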

How the data were processed

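Small RNA libraries of A375 cells were analysed from RPM that the authors deposited, 1 value per hairpin, mature name and library, with decimal commas. CASAVA 1.8 and cutadapt 1.2.1 were used, per the submitters' processing notes. For the aligner, annotation release and genome build, no entry is given in the sources used here. Each deposited column summed to 1000000, and 100% of values were whole multiples of 1 read within 0.01 reads, so read assignments were recovered, 10816826 in replicate 1 and 15428446 in replicate 2. One read equalled 0.0924 and 0.0648 RPM. Reads assigned to several hairpins count in each, so each mature name was reduced to its highest copy.

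Columns were matched to samples by their descriptions, with 0 other columns present. Logarithms used a pseudocount of 1 RPM, which understates differences of low miRNAs. Means and SD are over 2 libraries, with no test between groups. Hairpins were matched by name to GENCODE 29 (1094 of 1095), and mature sequences came from RefSeq (GRCh38.p14), which held 3 of the 4 members. RNAfold 2.7.2 folded mir-191. A two-sided Fisher exact test on reads of the whole table, checked on simulated data, was an alternative. Named miRNAs were the members, their 2 neighbours in level on each side, the 3 nearest patterns of each 5p arm, the normaliser list, markers from the cell type lists, the 3 highest other pairs and the 2 nearest hairpins by arm ratio. The pairs of opposite order, mir-27b and mir-23b, mir-4443, miR-99b-5p and names whose range overlapped that of miR-191-5p, such as miR-22-3p, were chosen after their values were seen. Members and lists were chosen with earlier results of these data known. Calculations used Python 3.11.15, pandas 2.3.3 and scipy 1.17.1.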

Additional observations from a re-analysis of the deposited data

How the results depend on the processing

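Among the members' differences and ratios recomputed here, the direction turned for the difference between libraries of miR-191-3p, -0.09 as deposited and 0.014 with median-ratio scaling. Of other names with a stated difference, miR-93-5p, miR-92a-3p and miR-27b-3p turned under the same scaling. That scaling, which takes out a median shift of -0.10, gave 0.56 for miR-191-5p and 0.46 for miR-425-5p. With copies summed, which counts many reads more than once, the ranks of miR-191-5p, miR-191-3p, miR-425-5p and miR-425-3p were 6, 218, 70 and 151. Leaving out replicate 1 and then replicate 2 gave ranks of 2 and 5 for miR-191-5p, 212 and 215 for miR-191-3p, 61 and 66 for miR-425-5p, and 150 and 147 for miR-425-3p. With miR-100-5p removed from the total, miR-191-3p averaged 51.5 RPM. The 4 members held 5.47% of the deposited total. The ratio of miR-191-3p to miR-425-3p was -1.29 on the log2 scale with a pseudocount of 10 RPM. Hairpins with a lower log2 5p over 3p than mir-191 were 95.7% at a minimum of 10 RPM, 87.1% at 1000 RPM and 97.1% with a pseudocount of 10 RPM. For mir-425 they were 61.0% at 10 RPM and 37.1% at 1000 RPM. Pairs less far apart than mir-191 and mir-425 were 86.7%, or 80.0% of 25 pairs at 100 RPM and 83.3% of 60 pairs at 1 RPM. The count of names over 2-fold apart, 6, was 12 at a minimum of 1 RPM, 13 with none, 2 at 100 RPM and 25 at 1.5-fold. With median-ratio scaling it was 4. It was 40 by the Fisher exact test on reads, of 869 names. Counted over all alternatives, 60 values moved by less than the spread between the libraries, or, for differences between them, by less than counting error. A mean of 2 libraries always moves by less than their SD when 1 of them is left out, so those cases show no stability. No paired analysis was possible because the series has 1 group. With 2 libraries the SD itself is poorly known, and depth limits miR-191-3p most, with 531 and 712 reads.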

Other observations

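The median difference between the libraries was also taken by the first base of the mature miRNA, without holding arm or level equal. Among names at a mean of 10 RPM or more with a RefSeq sequence, the median log2 of replicate 2 over replicate 1 was 0.04 for 73 names that begin with C, as miR-191-5p does (0.46). It was -0.24 for 79 names that begin with A, as miR-425-3p does (-0.24), -0.28 for 21 that begin with G, as miR-191-3p does (-0.09 as deposited, 0.014 after median-ratio scaling), and -0.06 for 137 that begin with U, a median that changes sign under that scaling (a shift of -0.10 taken out). MiR-425-5p (0.36) had no sequence in the source used and was not placed by first base. These are descriptions of 2 libraries, and the part of the first base in the members' differences was not tested.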
